A study of Homo sapiens with 17 samples.

Results

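Genes of 9 protein kinases that act in mitosis were followed in L363, a cell line grown from a human multiple myeloma, a cancer of plasma cells. They are AURKA, AURKB, PLK1, BUB1, BUB1B, TTK, NEK2, CDK1 and MELK. They were named as a list of genes, with earlier results of these data known, and all 9 were among the 19775 genes measured. On these oligonucleotide arrays a probe set is a group of short probes read together as 1 signal, and the 9 genes had 20 probe sets annotated to them alone. A gene's level is that of its brightest probe set by mean signal over the 17 arrays, and its other probe sets served as a check.

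Progress through mitosis is driven by protein phosphorylation. CDK1, bound to cyclin B, starts mitotic entry, PLK1 and AURKA act at centrosomes and on the early spindle, and AURKB, the kinase of the chromosomal passenger complex, corrects faulty attachments of chromosomes to spindle fibres. TTK, BUB1 and BUB1B work in the spindle checkpoint, which holds back anaphase until every chromosome is attached, NEK2 separates the centrosomes, and MELK is a kinase whose level peaks in dividing cells. RNAs of these genes rise in G2 and mitosis and are low in resting cells.

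RNA was taken after 48 hours from cells given 0.5 uM MS275 (an inhibitor of class I histone deacetylases), 1 nM rapamycin (an inhibitor of the kinase mTOR), 10 nM rapamycin, MS275 with either dose of rapamycin, or no drug (control). The groups given both drugs are named here by their rapamycin dose, as the 1 nM combination and the 10 nM combination. There were 3 arrays in each group except the 10 nM combination, which had 2 because the submitters discarded 1 array at quality control. All groups are the same single cell line, and no genotype differs between them. The labels do not say that replicates came from separate cultures, so the spread and the p-values may cover technical variation only.

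The values are log2 signals of normalized arrays, and the number of arrays limits their precision. All 8 plasma cell markers were measured, with means over the arrays from 8.09 to 12.59 on the log2 scale and a median of 11.58. The marker lists of other lineages (B and T cells, myeloid and red cells, epithelium, fibroblasts) had medians from 3.95 to 5.79. Their highest single marker, CD22 of B cells, had a mean of 7.09. Of the B cell markers 3 of 4 were measured, and of the red cell markers 2 of 4. Replicate 1 of the 1 nM combination and replicate 1 of control had a narrower range of values than the rest, as the SD of their log2 signals was 2.15 and 2.14 while the remaining 15 arrays had 2.27 to 2.37. Counts of called kinase genes and of called genes in the related lists are given with and without these 2 arrays. In RNA from whole cultures, fewer cells in mitosis and less RNA per mitotic cell cannot be told apart.

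The clearest pattern was a lower level of AURKA, AURKB and PLK1 in treated cells than in untreated ones. By their brightest probe sets, these 3 genes lay below all 3 control arrays on every one of the 14 treated arrays, as did 0.991% of all genes. The second probe sets of AURKA and AURKB did overlap control. That of AURKB had 6.32 on control replicate 3, below MS275 replicate 2 (6.53) and 1 nM rapamycin replicate 2 (6.73). That of AURKA had 7.81 on control replicate 1, below the MS275 arrays (8.29, 7.88 and 8.47). The other 6 genes had group means below control in most treatments, but in the main fit of all 17 arrays only MELK of these passed the test, and only in the combinations. No gene of the 9 was called higher in any comparison.

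**Figure D1:**
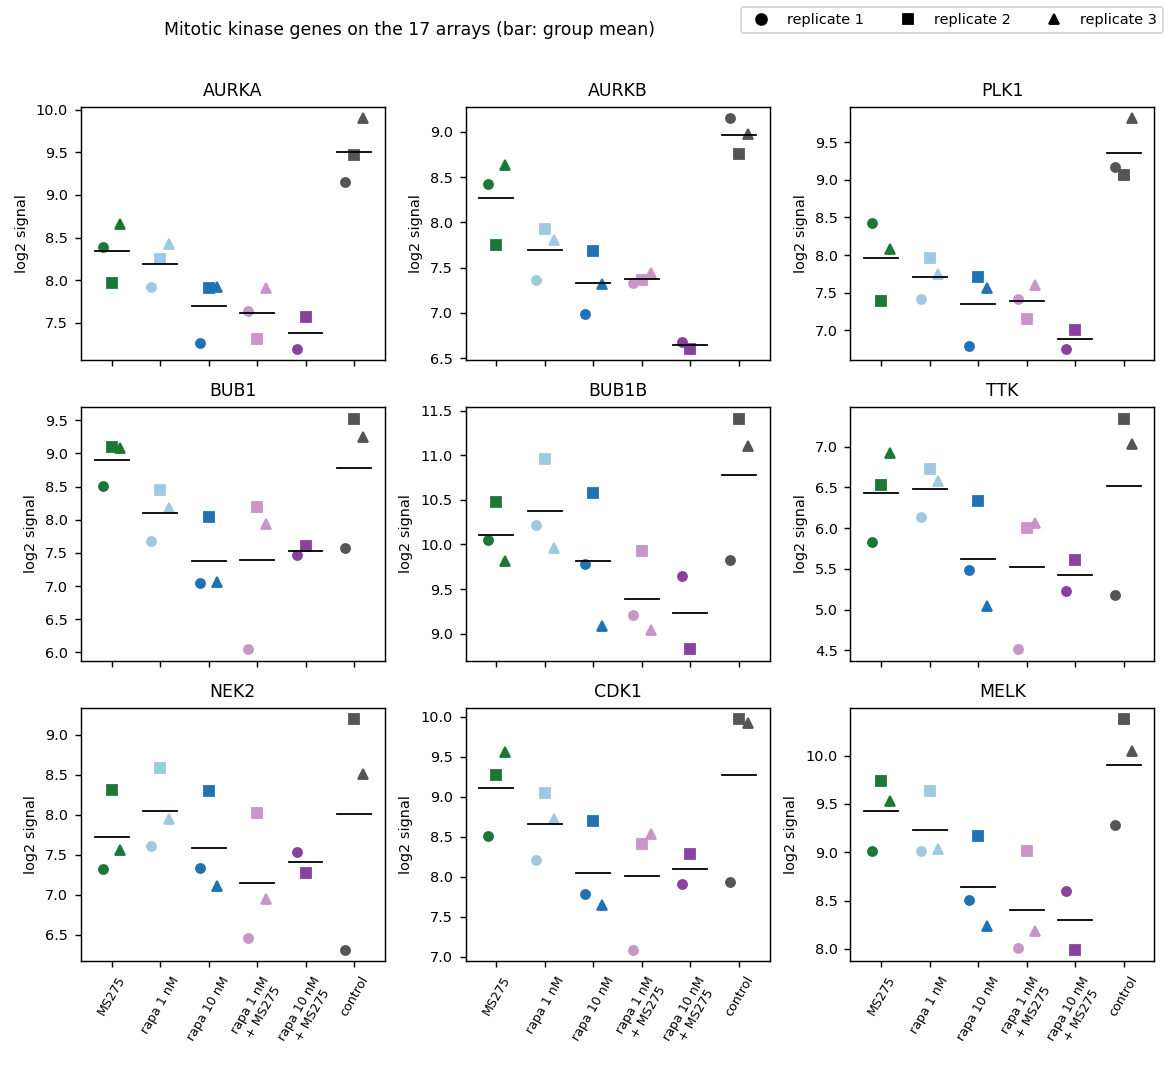
Log2 signal of each mitotic kinase gene (vertical axis, its own scale in each panel) on the 17 arrays, by group along the horizontal axis, with replicates 1, 2 and 3 as circle, square and triangle and the group mean as a bar. AURKA, AURKB and PLK1 lie lower on every treated array than on the 3 control arrays, while in panels such as NEK2 and CDK1 control replicate 1 lies far below the other control arrays.

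AURKA, which builds the spindle poles, had log2 signals of 8.38, 7.97 and 8.66 with MS275, 7.92, 8.24 and 8.43 with 1 nM rapamycin, and 7.26, 7.91 and 7.91 with 10 nM. It had 7.64, 7.30 and 7.91 in the 1 nM combination and 7.20 and 7.57 in the 10 nM combination, against 9.15, 9.46 and 9.90 in control cells. The group means climbed in the order 10 nM combination, 1 nM combination, 10 nM rapamycin, 1 nM rapamycin, MS275 and control. The arrays of neighbouring groups overlapped in that order except between 10 nM and 1 nM rapamycin and between MS275 and control.

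PLK1, which acts from mitotic entry to cytokinesis, had 8.43, 7.40 and 8.08 with MS275, 7.42, 7.96 and 7.75 with 1 nM rapamycin, and 6.80, 7.70 and 7.57 with 10 nM. It had 7.42, 7.16 and 7.60 in the 1 nM combination and 6.76 and 7.0 in the 10 nM combination, against 9.16, 9.06 and 9.82 in control cells. All 14 treated arrays were below all 3 control arrays, and each treated group overlapped the next in the order of means.

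AURKB had log2 signals of 8.42, 7.75 and 8.64 with MS275, 7.36, 7.93 and 7.80 with 1 nM rapamycin, and 6.98, 7.69 and 7.32 with 10 nM. It had 7.33, 7.36 and 7.44 in the 1 nM combination and 6.68 and 6.61 in the 10 nM combination, against 9.15, 8.76 and 8.98 in control cells. The 2 arrays of the 10 nM combination were the lowest of all 17, with no overlap with the next group up, 10 nM rapamycin.

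The bases just before the start sites of PLK1, AURKB, CDK1 and BUB1B are shown, which include all the kinase genes found with the first motif below. They are shown because the promoters of mitotic genes are known for a pair of short motifs. One is TTTGAA, the core of the cell cycle genes homology region, or CHR, which proteins of the DREAM and MuvB complexes contact, together with B-MYB (MYBL2) and FOXM1 in dividing cells. The other is CCAAT, which the factor NF-Y binds. The sequences are RefSeq's, build GRCh38.p14, 150 bases each, 5′ to 3′ on the strand of the gene, ending at the base before the start site. Capitals mark TTTGAA and CCAAT, read on either strand, so that ATTGG is CCAAT on the other strand. They lie at chr16:23678739-23678888 (plus strand) for PLK1, chr17:8210250-8210399 (minus strand) for AURKB, chr10:60778328-60778477 (plus strand) for CDK1 and chr15:40160919-40161068 (plus strand) for BUB1B.
PLK1: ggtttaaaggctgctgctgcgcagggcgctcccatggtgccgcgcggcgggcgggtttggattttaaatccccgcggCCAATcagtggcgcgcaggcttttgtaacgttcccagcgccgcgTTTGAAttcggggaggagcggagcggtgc
AURKB: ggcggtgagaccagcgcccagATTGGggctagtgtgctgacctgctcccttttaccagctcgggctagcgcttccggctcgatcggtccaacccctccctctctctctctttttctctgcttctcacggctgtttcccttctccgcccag
CDK1: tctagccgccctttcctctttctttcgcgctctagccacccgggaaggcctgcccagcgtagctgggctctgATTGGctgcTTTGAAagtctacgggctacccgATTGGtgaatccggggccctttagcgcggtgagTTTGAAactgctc
BUB1B: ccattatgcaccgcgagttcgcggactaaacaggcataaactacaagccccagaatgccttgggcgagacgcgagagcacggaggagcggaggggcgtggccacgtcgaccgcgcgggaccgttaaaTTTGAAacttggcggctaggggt

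RefSeq windows, from 250 bases before to 50 after a start site, were matched for 7 of the 9 genes, with 9 windows in all. None was available for AURKA and TTK, and the window of MELK held neither motif. TTTGAA was found on either strand in windows of 3 of the 7 genes (PLK1, CDK1 and BUB1B), which were 4 of 9 windows, against 15.2% of all 35116 windows. CCAAT was found in 5 of the 7 genes (PLK1, AURKB, CDK1, BUB1 and NEK2), which were 7 of 9 windows, against 34.6% of all windows. The windows of AURKB overlap and hold the same CCAAT, so that site is counted in both. Those of CDK1 overlap too. In PLK1 the first base of CCAAT stands 73 bases and that of TTTGAA 29 bases before the start. In the CDK1 stretch TTTGAA stands 69 and 13 bases before the start, in BUB1B 23 bases before it, and in AURKB only CCAAT was found, 129 bases before the start. A match is a description of these letters, not evidence that a factor binds there.

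Each treatment was then compared with control, which asks what each drug, dose or combination did to the level of these RNAs. The test was limma's moderated test with all 17 arrays in 1 model. Its p-values were corrected over the 19775 genes (Benjamini-Hochberg), and those under 0.05 after correction counted as past the threshold. Of the 9 kinase genes, 2 were lower with MS275 (0.455% of all genes were called lower), 0 with 1 nM rapamycin (0.0809%), 3 with 10 nM rapamycin (0.369%), and 4 each in the 1 nM (1.58%) and the 10 nM combination (2.24%). At 1 nM rapamycin, 3 of the 9 were lower at an unadjusted limma p under 0.05, as were 5.1% of all genes. All arrays of a treatment lay below all control arrays for 3 of the 9 with MS275 (5.34% of all genes), 3 with 1 nM rapamycin (8.03%), 4 with 10 nM rapamycin (4.93%), 4 in the 1 nM combination (5.61%) and, with 1 array fewer, 5 in the 10 nM combination (13%). The median log2 change of the 9 was -0.47 for MS275, -0.68 and -1.27 for rapamycin at 1 and 10 nM, and -1.39 and -1.54 for the combinations at 1 and 10 nM. The same median over all genes ran from -0.12 to 0.02. These 5 comparisons share the 3 control arrays.

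**Figure D2:**
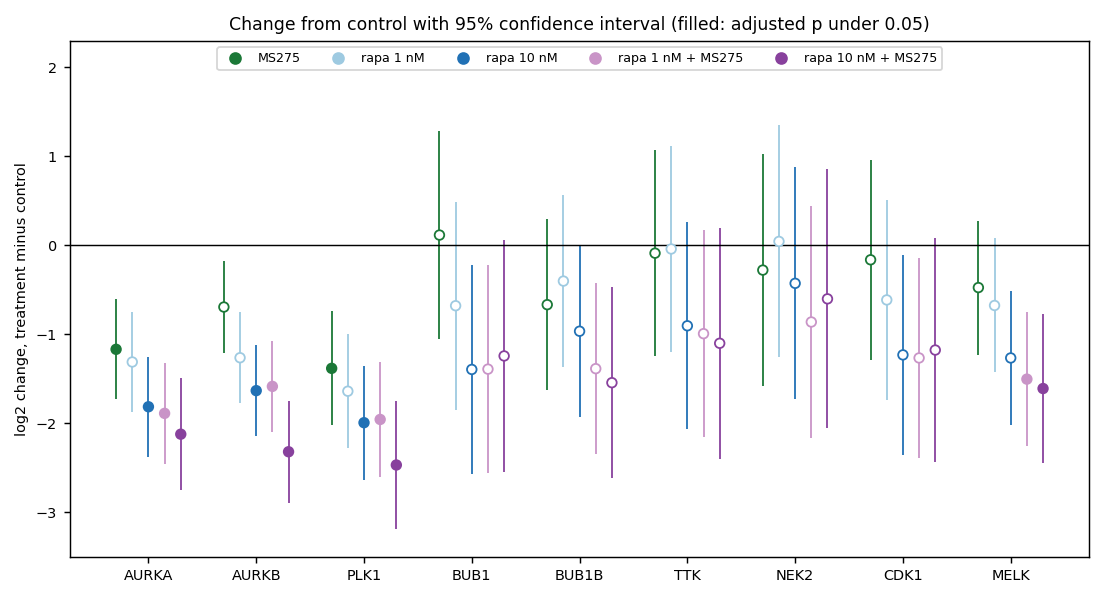
Log2 change from control of each mitotic kinase gene (vertical axis) with its 95% confidence interval, for MS275, 1 nM rapamycin, 10 nM rapamycin, the 1 nM combination and the 10 nM combination from left to right within each gene; filled points passed the threshold. The changes of AURKA, AURKB and PLK1 all lie below 0 with narrow intervals, down to -2.47 for PLK1 in the 10 nM combination, while those of BUB1, TTK, NEK2 and CDK1 have wide intervals.

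PLK1 fell by 1.38 ± 0.30 on the log2 scale with MS275 (SE, n = 3 each; limma adjusted p = 0.0333), which is 2.61-fold lower. With 10 nM rapamycin it fell by 1.99 ± 0.30 (3.98-fold lower, limma adjusted p = 0.0130). In the combinations it fell by 1.96 ± 0.30 at 1 nM (3.88-fold lower, limma adjusted p = 0.00238) and fell by 2.47 ± 0.34 at 10 nM (5.53-fold lower, limma adjusted p = 0.00106). With 1 nM rapamycin the change of -1.64 ± 0.30 missed the threshold (limma adjusted p = 0.0631).

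AURKA fell by 1.17 ± 0.26 with MS275 (2.25-fold lower, limma adjusted p = 0.0414) and fell by 1.81 ± 0.26 with 10 nM rapamycin (3.52-fold lower, limma adjusted p = 0.0130). It fell by 1.89 ± 0.26 in the 1 nM combination (3.70-fold lower) and fell by 2.12 ± 0.29 in the 10 nM combination (4.35-fold lower), with limma adjusted p = 0.00139 and 0.00115. With 1 nM rapamycin its change of -1.31 ± 0.26 missed the threshold (limma adjusted p = 0.0825).

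AURKB fell by 1.63 ± 0.24 with 10 nM rapamycin (3.10-fold lower, limma adjusted p = 0.0130), fell by 1.58 ± 0.24 in the 1 nM combination (3.0-fold lower, limma adjusted p = 0.00226) and fell by 2.32 ± 0.27 in the 10 nM combination (4.99-fold lower, limma adjusted p = 0.000345). Its changes of -0.69 ± 0.24 with MS275 and -1.26 ± 0.24 with 1 nM rapamycin missed the threshold (limma adjusted p = 0.223 and 0.0661). By its brightest probe set, no array of either group reached the control arrays. The interval for MS275 ran from -1.21 to -0.18.

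MELK had log2 signals of 9.02, 9.74 and 9.53 with MS275, 9.02, 9.64 and 9.03 with 1 nM rapamycin, and 8.51, 9.17 and 8.24 with 10 nM. It had 8.01, 9.02 and 8.18 in the 1 nM combination and 8.60 and 7.99 in the 10 nM combination, against 9.29, 10.38 and 10.05 in control cells. The groups with 10 nM rapamycin and both combinations lay wholly below control, and the other 2 treated groups overlapped it. MELK fell by 1.5 ± 0.35 in the 1 nM combination (2.84-fold lower, limma adjusted p = 0.0331) and fell by 1.61 ± 0.39 in the 10 nM combination (3.05-fold lower, limma adjusted p = 0.0382). With 10 nM rapamycin its change was -1.27 ± 0.35 (limma adjusted p = 0.205).

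Not all of these calls held when 1 array was left out in turn. Those of AURKA, AURKB and PLK1 in both combinations held without any 1 of the 17 arrays. The AURKA call with MS275 held in 5 of 17 such fits, those without replicate 1 of 10 nM rapamycin, an array of the 1 nM combination or control replicate 1, with changes from -1.35 to -0.97 over all 17. For PLK1 with MS275, 13 of 17 fits kept the call, and it was lost on leaving out MS275 replicate 2 or 3, 1 nM rapamycin replicate 3 or control replicate 3 (-1.61 to -1.10). The 3 calls of 10 nM rapamycin were lost on leaving out its replicate 1 or control replicate 3, and that of AURKB also without its replicate 3 (AURKA -1.99 to -1.60, AURKB -1.81 to -1.46, PLK1 -2.17 to -1.71). The MELK call held in 13 of 17 fits in the 1 nM combination, where it was lost without replicate 1 or 3 of the combination or control replicate 2 or 3 (-1.81 to -1.27). In the 10 nM combination it held in 9 of 17 (-1.92 to -1.30), and was lost without either array of the combination, MS275 replicate 3, 1 nM rapamycin replicate 1 or 3, 10 nM rapamycin replicate 1, or control replicate 2 or 3. Centring each array on its median ended the calls of AURKA with MS275 and of MELK in both combinations, and a gene level taken as the mean of its probe sets ended those of AURKA with MS275 and with 10 nM rapamycin. A trend in the prior variance ended those of AURKA with MS275 and of MELK in the 10 nM combination. Fits that held only the arrays of the compared groups made none of these calls.

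Replicate numbers recur in every group, and with the number as a block in the model the 3 changes at 1 nM rapamycin passed. The limma adjusted p values of this blocked fit were 0.0161 for AURKA, 0.0415 for AURKB and 0.0269 for PLK1, and 0.455% of all genes were then called lower. In the 1 nM combination 7 of the 9 passed with the block, where 2.98% of all genes were called lower. The added calls were BUB1 (-1.39, limma adjusted p = 0.0419), BUB1B (-1.39, limma adjusted p = 0.0481) and CDK1 (-1.27, limma adjusted p = 0.0454). Elsewhere the block added MELK with 10 nM rapamycin (-1.27, limma adjusted p = 0.04999) and BUB1B in the 10 nM combination (-1.69, limma adjusted p = 0.0297). The shares of all genes called lower in those blocked comparisons are not given. The arrays of narrower range are replicate 1 of the 1 nM combination and replicate 1 of control. How much of what the block took up came from them was not tested.

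The checkpoint kinases were more scattered among the control arrays. BUB1, which recruits checkpoint proteins to kinetochores, had log2 signals of 8.51, 9.10 and 9.08 with MS275, 7.68, 8.44 and 8.18 with 1 nM rapamycin, and 7.05, 8.04 and 7.07 with 10 nM. It had 6.05, 8.19 and 7.93 in the 1 nM combination and 7.47 and 7.60 in the 10 nM combination, against 7.57, 9.52 and 9.25 in control cells. Control replicate 1 lay inside the range of the treated arrays, while control replicates 2 and 3 were the highest of all 17.

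BUB1B, the BUBR1 subunit of the complex that blocks the anaphase-promoting complex, had 10.04, 10.47 and 9.82 with MS275, 10.21, 10.95 and 9.96 with 1 nM rapamycin, and 9.78, 10.58 and 9.09 with 10 nM. It had 9.21, 9.93 and 9.04 in the 1 nM combination and 9.64 and 8.83 in the 10 nM combination, against 9.82, 11.41 and 11.10 in control cells. Only the 10 nM combination did not overlap the control arrays. Its change there, -1.54 ± 0.50, missed the threshold (limma adjusted p = 0.132).

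TTK, the MPS1 kinase that starts checkpoint signalling, had 5.83, 6.54 and 6.93 with MS275, 6.13, 6.72 and 6.58 with 1 nM rapamycin, and 5.48, 6.33 and 5.04 with 10 nM. It had 4.51, 6.01 and 6.06 in the 1 nM combination and 5.23 and 5.61 in the 10 nM combination, against 5.18, 7.35 and 7.04 in control cells. The control arrays of replicates 2 and 3 were the highest of the 17 and control replicate 1 was among the lowest.

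CDK1, the kinase that drives mitotic entry, had 8.51, 9.27 and 9.56 with MS275, 8.22, 9.05 and 8.73 with 1 nM rapamycin, and 7.79, 8.70 and 7.65 with 10 nM. It had 7.09, 8.41 and 8.54 in the 1 nM combination and 7.92 and 8.29 in the 10 nM combination, against 7.94, 9.97 and 9.93 in control cells. As with TTK, control replicate 1 lay with the treated arrays.

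NEK2 had 7.32, 8.31 and 7.55 with MS275, 7.61, 8.59 and 7.94 with 1 nM rapamycin, and 7.33, 8.29 and 7.11 with 10 nM. It had 6.45, 8.02 and 6.95 in the 1 nM combination and 7.53 and 7.27 in the 10 nM combination, against 6.31, 9.19 and 8.51 in control cells. Control replicate 1 was the lowest of all 17 arrays and control replicate 2 the highest. The changes of BUB1, BUB1B, TTK, NEK2 and CDK1 from control ran from -1.54 to 0.12 over the 5 treatments, none past the threshold, and the widest intervals were those of NEK2, from -2.06 to 0.86 in the 10 nM combination.

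Without the 2 arrays of narrower range, the counts of the 9 genes called lower were 2 for MS275, 0 and 5 for rapamycin at 1 and 10 nM, and 4 and 8 for the combinations at 1 and 10 nM. The shares of all genes called lower in the same fit were 1.23%, 0.197%, 0.657%, 1.96% and 3.18% in that order. With 10 nM rapamycin the added calls were BUB1 (-2.0 ± 0.31, limma adjusted p = 0.0165) and CDK1 (-1.90 ± 0.36, limma adjusted p = 0.0342). In the 10 nM combination they were BUB1 (-1.85 ± 0.34, limma adjusted p = 0.00933), BUB1B (-2.02 ± 0.48, limma adjusted p = 0.0351), TTK (-1.77 ± 0.40, limma adjusted p = 0.0274) and CDK1 (-1.85 ± 0.39, limma adjusted p = 0.0189). NEK2 was the only gene of the 9 not called there (-1.45 ± 0.49, limma adjusted p = 0.132). The changes of AURKA, AURKB and PLK1 moved by less than their SE. In the combinations MELK fell by 1.61 ± 0.38 at 1 nM and fell by 1.92 ± 0.38 at 10 nM (limma adjusted p = 0.0408 and 0.0134), and its change of -1.57 ± 0.35 with 10 nM rapamycin missed the threshold (limma adjusted p = 0.0661).

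Other probe sets of the same genes did not behave alike on these 2 arrays. The second probe set of CDK1 had log2 signals of 7.14 on replicate 1 of the 1 nM combination and 8.91 on control replicate 1, against 9.07 and 9.69 on the other control arrays, so it did not dip on control replicate 1 as the first did. Its change in the 10 nM combination, -2.09 ± 0.48, passed the threshold over all probe sets (limma adjusted p = 0.0396), as did that of the third probe set, -2.16 ± 0.50 (limma adjusted p = 0.0381), where 1.37% of all 54613 probe sets were called lower. The second probe set of NEK2 had changes from -1.60 to -1.04 over the 5 treatments, against -0.86 to 0.04 for the first, and passed in none. The second probe set of AURKA did the reverse and dipped where the first did not, with 5.96 on replicate 1 of the 1 nM combination and 7.81 on control replicate 1, against 9.18 and 9.86 on the other control arrays. It passed in no treatment with all 17 arrays. Without the 2 narrow arrays it passed in all treatments but 1 nM rapamycin, and its change in the 10 nM combination was -2.27 ± 0.29, beside -2.30 ± 0.31 for the first. The second probe set of AURKB passed in no treatment. Its changes in the combinations were -1.56 ± 0.47 at 1 nM and -1.89 ± 0.52 at 10 nM (limma adjusted p over all probe sets = 0.142 and 0.0879). Without the 2 narrow arrays they were -1.55 ± 0.61 and -1.76 ± 0.61 (limma adjusted p = 0.302 and 0.190).

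The gap between the first and the second probe set of a gene, in log2, shows this directly. For AURKA it was 1.68 on replicate 1 of the 1 nM combination and 1.34 on control replicate 1, against -0.12 to 0.28 on the other 15 arrays. For CDK1 it was -0.06 and -0.98 on the same arrays, against -0.01 to 1.36, and for NEK2 1.07 and 0.73, against 1.83 to 4.27. For AURKB (1.60 and 1.85) and BUB1 (1.38 and 1.42) the 2 arrays lay inside the range of the other 15. PLK1, BUB1B, TTK and MELK have 1 probe set each, so no such check was possible for them.

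**Figure D3:**
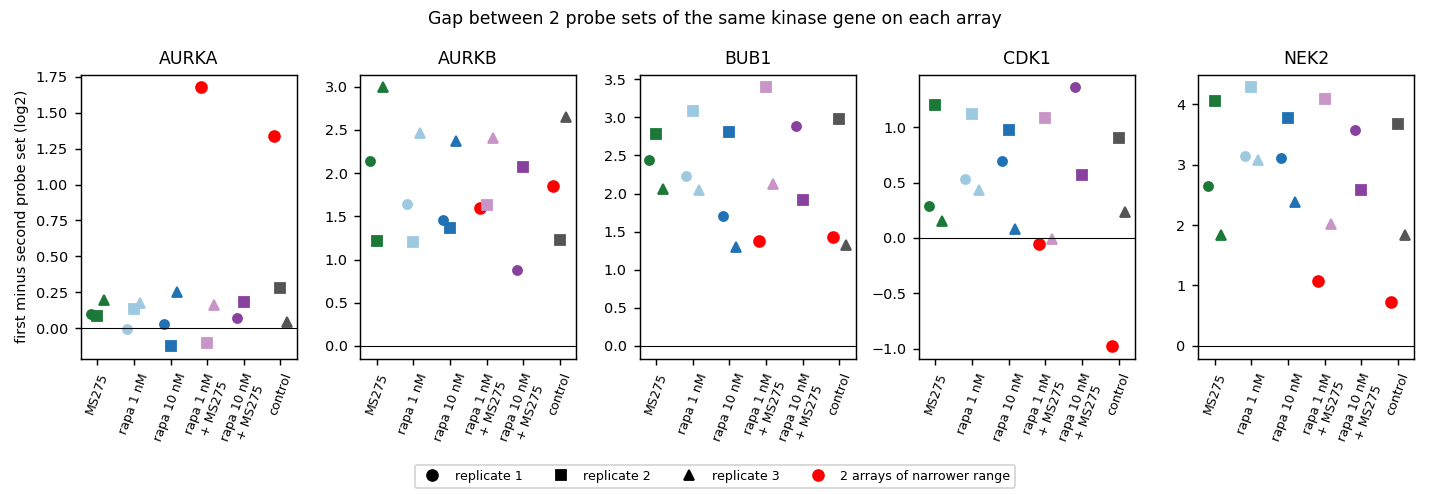
Log2 signal of the first probe set minus that of the second (vertical axis) for the 5 kinase genes with more than 1 probe set, on each array by group, with the 2 arrays of narrower range in red. The red points stand at 1.68 (1 nM combination) and 1.34 (control) for AURKA, above all other arrays, and below all other arrays for CDK1 and NEK2.

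The 2 doses of rapamycin were then compared, without and with MS275. With 10 nM rapamycin all 9 genes were below their level with 1 nM, by -0.86 (TTK) to -0.35 (PLK1), with a median of -0.56 against 0.03 over all genes. None passed (limma adjusted p = 1 for each), none had an unadjusted p under 0.05 (0.0405% of all genes were lower at that level), and 0% of all genes were called. Taken between arrays of the same replicate number, all 27 differences were below 0, from -1.54 to -0.18, but these are 3 pairs of arrays and the 9 genes on an array share its RNA. In the combinations, 10 nM against 1 nM gave changes from -0.73 (AURKB) to 0.26 (NEK2), 6 of the 9 below 0, and none passed, with 0% of all genes called. All arrays of the 10 nM combination lay below all of the 1 nM combination for 2 of the 9 genes, and for 8.16% of all genes. AURKB was 1 of the 2, at 6.68 and 6.61 in the 10 nM combination against 7.33, 7.36 and 7.44 in the 1 nM combination (limma adjusted p = 0.995).

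The combinations were also set against each drug alone. In the 10 nM combination all 9 genes were below their level with MS275 alone, with changes from -1.63 to -0.32, and AURKB passed, falling by 1.63 ± 0.27 (3.09-fold lower, limma adjusted p = 0.0204; 0.248% of all genes were called lower). That call was lost without MS275 replicate 1 or 3 or either array of the combination (-1.89 to -1.44 over the 17 fits). In the 1 nM combination against MS275 all 9 were below 0 (-1.51 to -0.57) and 0 passed, where 0.101% of all genes were called lower, and 4 had an unadjusted limma p under 0.05 (2.81% of all genes were lower at that level). Against rapamycin alone, the 1 nM combination had all 9 below 0 (-0.98 to -0.32) with 3 at an unadjusted limma p under 0.05 (4.31% of all genes were lower at that level), and 0 passed, where 0.293% of all genes were called lower. The 10 nM combination against 10 nM rapamycin had 7 below 0 (-0.69 to 0.15), 1 at an unadjusted limma p under 0.05 (3.62% of all genes were lower at that level) and 0 past the threshold, where 0.137% of all genes were called lower. The interval for AURKA in that last comparison ran from -0.94 to 0.32, so a further fall of up to 0.94 is within the error.

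Whether a combination differed from the sum of its drugs was tested as the interaction on the log2 scale. A value above 0 means that the combination's change lay above the sum of its drugs' changes. At 1 nM the 9 values ran from -0.86 (TTK) to 1.06 (PLK1), with 6 of them below 0. Their median was -0.35, against 0.16 over all genes. The value of PLK1, 1.06 ± 0.42, had a 95% interval from 0.16 to 1.97 (limma adjusted p = 0.682). At 10 nM 1 of the 9 was below 0, and the median was 0.10 against 0.02 over all genes. The values there were 0.91 ± 0.45 for PLK1 and 0.86 ± 0.39 for AURKA (limma adjusted p = 1 for both), while AURKB was at 0.01 ± 0.36. None of the 9 passed at either dose and 0% of all genes were called, with 1 of the 9 at an unadjusted limma p under 0.05 at each dose (4.63% of all genes at 1 nM and 0.981% at 10 nM, in either direction).

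Over the 17 arrays the genes fell into 2 sets, a split made after their values were seen. AURKA, AURKB and PLK1 correlated at Pearson r from 0.91 to 0.97 with each other, and the other 6 genes at 0.72 to 0.97 among themselves. Between the sets r ran from 0.23 to 0.76, lowest for NEK2 with AURKB. Without the 2 narrow arrays the values between the sets ran from 0.56 to 0.86, and those within them from 0.91 to 0.97 and from 0.71 to 0.96. The points share their library and treatment, so these are descriptions. With the group means removed, CDK1 and TTK correlated at 0.99 and AURKA and PLK1 at 0.84. These 2 values include the narrow arrays and were not computed without them. CDK1 and TTK both stood low there, at 7.94 and 5.18 on control replicate 1 and 7.09 and 4.51 on replicate 1 of the 1 nM combination. How much of the 0.99 came from these arrays was not tested. With PLK1 as the partner, the second probe set of NEK2 had r = 0.82 and the first 0.25, and the second probe set of CDK1 had 0.85 and the first 0.58. That of BUB1 had 0.76 and the first 0.55. For AURKA the second had 0.76 and the first 0.97, and for AURKB the second had 0.64 and the first 0.93. The split into 2 sets therefore depends on the probe sets taken.

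**Figure D4:**
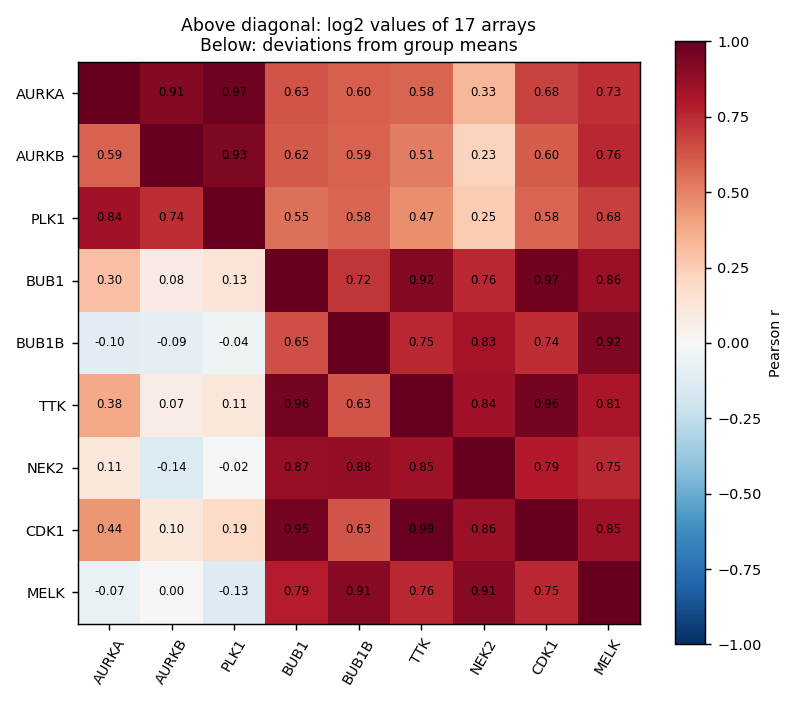
Pearson r between the 9 kinase genes, over the log2 values of the 17 arrays (above the diagonal) and over deviations from the group means (below it), coloured from -1 to 1. AURKA, AURKB and PLK1 form 1 dark block and the other 6 genes another, with NEK2 and AURKB at 0.23 between them.

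Lists of genes that act with these kinases were read in the same fit. Their counts stand beside the shares of all genes called lower. These were 0.455% with MS275, 0.0809% and 0.369% with rapamycin at 1 and 10 nM, and 1.58% and 2.24% in the combinations. With the 2 narrow arrays left out the shares were 1.23%, 0.197%, 0.657%, 1.96% and 3.18% in that order. Of 12 cyclin partners and activators, 0 were called lower with MS275, 0 with 1 nM rapamycin, 4 with 10 nM rapamycin and 6 in each combination. None was called higher, and the median change was -1.68 in the 10 nM combination, against -0.08 over all genes. CDC25C, a phosphatase that activates CDK1, fell by 2.05 ± 0.28 there (limma adjusted p = 0.00102). CCNB2, a cyclin B that binds CDK1, fell by 2.54 ± 0.39, and BIRC5 (survivin), a partner of AURKB, also fell by 2.54 ± 0.39 (limma adjusted p = 0.00253 for both). CDCA8 (borealin), of the same complex as AURKB, fell by 1.99 ± 0.29 with 10 nM rapamycin (limma adjusted p = 0.0130). With 15 arrays, the 2 narrow ones left out, the partners called lower were 2 with MS275, 2 with 1 nM rapamycin, 5 with 10 nM, and 8 and 9 in the combinations at 1 and 10 nM. The 2 called with MS275 and with 1 nM rapamycin were CCNB1 (cyclin B1) and TPX2, the activator of AURKA.

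Of 14 spindle checkpoint and anaphase regulators, 0, 0, 2, 3 and 4 were called lower in the same order of treatments and 0 higher. CDC20, the activator of the anaphase-promoting complex that the checkpoint holds in check, fell by 2.03 ± 0.29 with 10 nM rapamycin and fell by 2.08 ± 0.33 in the 10 nM combination (limma adjusted p = 0.0130 and 0.00290). ESPL1, the protease separase, fell by 2.41 ± 0.40 in the 10 nM combination (limma adjusted p = 0.00420), and UBE2C, a ubiquitin-conjugating enzyme of the anaphase-promoting complex, fell by 1.92 ± 0.27 (limma adjusted p = 0.00136). Of 20 kinesins and centromere proteins, 1, 1, 3, 6 and 8 were lower and 0 higher. MKI67, the Ki-67 proliferation antigen, was lower in all 5 treatments. It fell by 1.32 ± 0.20 with MS275 (limma adjusted p = 0.00493) and fell by 2.56 ± 0.23 in the 10 nM combination (limma adjusted p = 7.46e-05). KIF2C, a kinesin that AURKB regulates, fell by 2.59 ± 0.33 there (limma adjusted p = 0.000647). Leaving out the 2 narrow arrays, the checkpoint and anaphase genes called lower were 0, 0, 1, 3 and 4 in the same order of treatments, and the kinesins and centromere proteins 2, 1, 9, 7 and 14.

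Of 9 other kinases of mitosis, only PBK and HASPIN were called lower, both in the combinations, with log2 changes of -2.26 and -1.30 at 10 nM (limma adjusted p = 0.0116 and 0.0202), and the median of the 9 in the combinations was -0.80 at 1 nM and -0.46 at 10 nM. PBK is a kinase of dividing cells and HASPIN marks histone H3 to place AURKB at centromeres. Of the 4 kinases that hold cells before mitosis, 0 were called with a single drug, 1 lower in the 1 nM combination and 2 lower at 10 nM. PKMYT1, an inhibitor of CDK1, fell by 1.43 ± 0.32 with both drugs at 1 nM rapamycin and fell by 1.39 ± 0.36 at 10 nM (limma adjusted p = 0.0251 and 0.0483). CHEK2, a DNA damage checkpoint kinase, fell by 1.01 ± 0.25 in the 10 nM combination (limma adjusted p = 0.0421). In the fit of 15 arrays the other kinases of mitosis called lower were 1, 0, 1, 2 and 3 in the same order of treatments, and the 4 holding kinases gave 0, 0, 1, 2 and 3. PKMYT1 was then called in neither combination (limma adjusted p = 0.0977 at 1 nM and 0.0642 at 10 nM), and HASPIN was not called in the 1 nM combination (limma adjusted p = 0.0512).

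Relatives of the kinases that work outside mitosis served as a contrast. Of 13 such genes 12 were measured, and the 1 called was CDK2, the S phase relative of CDK1, which fell by 1.13 in the 10 nM combination (limma adjusted p = 0.0143). AURKC, the germ cell Aurora kinase, had a change of 0.37 there, and PLK2 and PLK3, stress-responsive relatives of PLK1, had -0.33 and -0.32, none past the threshold. Mean log2 levels over the arrays were 5.02 for AURKC, 2.69 for PLK2 and 6.43 for PLK3. AURKC and PLK2 are dim on these arrays, so a fall in them could hardly be seen. CDK4 and CDK6, kinases of G1, had -1.09 and -0.01, neither past the threshold. The median of the 12 was -0.18, against -1.54 for the 9 mitotic kinases and -0.08 for all genes. With the 2 narrow arrays left out, CDK2 was called lower with 10 nM rapamycin and in both combinations, and no other relative was called.

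Of 16 transcription factors of the mitotic programme, 2 were called lower with MS275, 1 with 1 nM rapamycin, and 3 in each of the other treatments, with 0 higher. MYBL2, the B-MYB factor that activates mitotic genes with the MuvB complex, was lower in all 5. It fell by 1.29 ± 0.22 with MS275 and fell by 3.11 ± 0.25 in the 10 nM combination (limma adjusted p = 0.0105 and 3.27e-05). In the 10 nM combination it also fell by 1.81 ± 0.25 relative to MS275 alone (limma adjusted p = 0.00639). FOXM1, a factor that acts on genes of G2 and mitosis, fell by 1.54 ± 0.31 with 10 nM rapamycin and fell by 2.77 ± 0.35 in the 10 nM combination (limma adjusted p = 0.0490 and 0.000565). E2F2, an activator of S phase genes, fell by 3.23 ± 0.35 in the 10 nM combination (limma adjusted p = 0.000274). Without the 2 narrow arrays the factors called lower were 3, 1, 3, 5 and 5 in the same order of treatments.

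**Figure D5:**
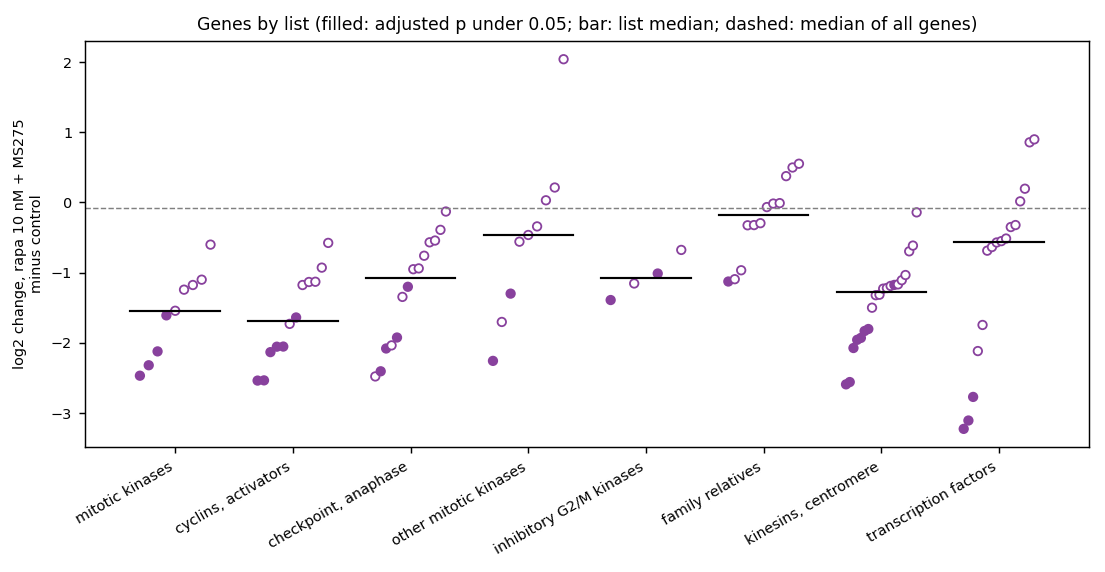
Log2 change in the 10 nM combination against control (vertical axis) of each gene of the mitotic kinases and of 7 related lists (horizontal axis), with filled points past the threshold, a bar for each list's median and a dashed line for the median of all genes, -0.08. The mitotic kinases (-1.54) and the cyclins and activators (-1.68) have the lowest medians, and the family relatives (-0.18) lie near all genes.

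The genes whose levels most resembled the mean of the 9 kinases over the 17 arrays, out of 19766 others, were CDCA2 (Pearson r = 0.97), GMNN (0.96), DIAPH3 (0.96), POLE2 (0.95), and FANCI, HAUS8, EXO1 and CCNB1 (0.94 to 0.95). CDCA2 encodes a chromatin phosphatase subunit of mitosis, GMNN the replication inhibitor geminin, POLE2 a DNA polymerase epsilon subunit and CCNB1 cyclin B1. By Spearman's rho 5 of the 8 were also among the first 8 and by the 6 group means 3 of the 8. They were picked for following the kinases over these same arrays, so no test against control is given for them.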

How the data were processed

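Total RNA of L363 cells was hybridised to 17 arrays in 6 groups. The authors deposited log2 signals per probe set, for which the submitters' processing notes name affy and RMA (their versions: not given in the sources used here). They were used as deposited. The table holds 54613 probe sets, of which 41091 carry 1 gene symbol, 1801 several and 11721 none in GEO's platform annotation. RefSeq (GRCh38.p14) updated names by Entrez ID for 41037 of the singly named. Taking the probe set of highest mean among those naming 1 gene gave 19775 genes. No detection calls were used, so signal over background is not known.

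The fit used limma 3.58.1 under R 4.3.3 (lmFit, then eBayes, both at defaults) with 6 group means, all arrays in 1 model without a term for replicate number, and p-values were adjusted over all genes at a threshold of 0.05. The script was tested on simulated data. Changes carry the SE of the fit, and the interaction is the combination's change less the sum of its drugs' changes.

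The genes named are the 9 kinases, up to 3 genes per list, those of lowest adjusted p in a comparison with control, family relatives, and the 8 genes of highest Pearson r with the kinases' mean. The kinases and lists were chosen with earlier results of these data known. A list is described by counts and medians.

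Labels reuse replicate numbers without saying what they mark. Deviations of same-numbered arrays from group means correlated at over 0.1 throughout in 7 of the 10 pairs of groups that share 3 numbers. Pairing there was read from the data and is not given by the labels. The 2 narrow arrays are both replicate 1, and their deviations correlated at 0.82, so they may produce part of it. Alternatives were a replicate block, array weights, leaving out the 2 narrow arrays or each array in turn, quantile normalization, centring, a filter on dim genes, other probe sets, a variance trend, and fits of only the groups compared. For the related lists, the fit without the narrow arrays was added after seeing the data.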

Additional observations from a re-analysis of the deposited data

How the results depend on the processing

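The counts of the 9 kinase genes past the threshold moved with several choices. The share of all genes called lower differed between settings too. It is given above for the main fit and the fit without the 2 narrow arrays. For the replicate block it is given only for 1 nM rapamycin and the 1 nM combination. For most other settings it is not given, so their counts cannot be read as particular to the kinases. With MS275 (2) the count was 1 with each array centred on its median, 1 with a gene as the mean of its probe sets, 1 with a variance trend, and 0 with only the compared groups in the fit. With 1 nM rapamycin (0) it was 3 with the replicate block, 6 with array weights, 3 after quantile normalization and 1 with the mean of probe sets. With 10 nM rapamycin (3) it was 8 with array weights, 5 without the 2 narrow arrays and 0 with only the compared groups. In the 1 nM combination (4) it was 7 with the replicate block and 0 with only the compared groups. In the 10 nM combination (4) it was 8 with array weights, 8 without the 2 narrow arrays, 3 with each array centred, 3 with a variance trend and 0 with only the compared groups. For AURKB in the 10 nM combination against MS275 (1) it was 0 with the mean of probe sets and 0 with only the compared groups. Fits of only the compared groups hold fewer arrays, 5 or 6. Array weights gave 1 nM rapamycin replicate 1 a weight of 11.3 and control replicate 1 a weight of 0.114.

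With the second probe set for the 5 genes that have 1, the only probe set for the other 4, and p-values adjusted over all 54613 probe sets, the counts were 0 with MS275, 0 with 1 nM rapamycin, 1 with 10 nM rapamycin, 2 in the 1 nM combination, 2 in the 10 nM combination and 0 for the 10 nM combination against MS275. The wider adjustment alone ended the PLK1 call with MS275 (limma adjusted p = 0.0505) and that of MELK in the 10 nM combination (0.0522), on unchanged probe sets. With the 2 narrow arrays also left out, a setting chosen after seeing the data, the counts were 1 with MS275, 0 with 1 nM rapamycin, 2 with 10 nM rapamycin, 2 in the 1 nM combination, 5 in the 10 nM combination and 0 for the 10 nM combination against MS275. The cause of the other shifts was not tested.

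Leaving out 1 array at a time gave 0 to 2 with MS275, 0 to 2 with 1 nM rapamycin, 0 to 3 with 10 nM rapamycin, 3 to 7 in the 1 nM combination (7 without control replicate 1), 3 to 5 in the 10 nM combination and 0 to 1 for the 10 nM combination against MS275. All other comparisons stayed at 0 under every alternative, and the replicate block changed no call there. No call of a single gene changed direction. Changes that were not called crossed 0 in 40 of 244 gene and setting values for the interaction at 10 nM, 23 for that at 1 nM, 25 for the dose comparison in the combinations and 14 with MS275. On the given strand only, TTTGAA was in 8.4% of all windows and CCAAT in 19.6%, with 4 of the 9 kinase windows for each.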

Other observations

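On single arrays, the mean of the 9 kinase genes was lowest on replicate 1 of the 1 nM combination, at 7.08 on the log2 scale, and highest on control replicates 2 and 3, at 9.46 and 9.40. Control replicate 1, at 8.17, held rank 9 of the 17 arrays by this mean, below all 3 arrays of MS275.

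BUB3, the checkpoint protein that binds BUB1 and BUBR1, fell by 0.93 ± 0.20 on the log2 scale in the 1 nM combination relative to 1 nM rapamycin alone (limma adjusted p = 0.0321). The call was lost without the 2 narrow arrays (-0.81 ± 0.19, limma adjusted p = 0.0716). With all arrays it was the only one of the 14 checkpoint and anaphase genes called in any comparison other than those with control, and it was named after its value was seen. The third probe set of BUB1 stood at 6.05 on replicate 1 of the 1 nM combination and 6.56 on control replicate 1, against 5.37 on both other control arrays, the opposite of the first probe set.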
